A study of Homo sapiens with 4 samples.

Results

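The genes described here are 10 that make, conjugate or carry bile acids: CYP7A1, CYP8B1, CYP27A1, CYP7B1, HSD3B7, BAAT, ABCB11, ABCC2, SLC51A and SLC51B. They were chosen by name for their place in the pathway and found by Ensembl gene ID among the 62655 gene IDs of the count table; all 10 were found, and 8 of them had enough reads to be tested, among 14464 genes tested in all. The cells were Hep G2, an established human hepatocellular line used as a model of hepatocytes, plated at 150000 per ml and moved after 24 h to an oleic acid medium, so that both groups were lipid-loaded (steatotic). In the mimic group, 2 libraries came from cells transfected with an oligonucleotide mimic of LysTTT-5'tRF, the 5' portion of a cleaved lysine tRNA with the TTT anticodon. In the control group, 2 libraries came from cells transfected with a negative control oligonucleotide, and all cells were harvested 24 h after transfection, which followed 24 h of oleic acid. Both groups share the line, the oleic acid and the transfection reagent, so the comparison says nothing of lipid loading itself.

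Hepatocytes make bile acids from cholesterol. In the classical pathway the ring is hydroxylated first, by CYP7A1, whereas in the alternative pathway the side chain is oxidised first, by CYP27A1, and the ring afterwards by CYP7B1. Both routes pass through HSD3B7, CYP8B1 sets the share of cholic acid, and BAAT joins the finished acid to glycine or taurine. Export into the bile canaliculus runs mainly through ABCB11 for bile salts and ABCC2 for conjugated organic anions, and SLC51A with SLC51B forms a carrier on the opposite, basolateral membrane. Bile acids limit their own synthesis through the nuclear receptor FXR and through FGF19, which acts on FGFR4 with the co-receptor beta-Klotho (KLB), a protein that the title of the study names.

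The libraries held 15430539 and 18961222 reads in genes for the mimic and 16793484 and 15970530 for the control. Levels are given as CPM, that is per 1000000 reads after TMM scaling of each library, in the order of libraries 1 and 2 of each group, as the table's columns number them. The control columns carry the study's abbreviation for its negative control, while the remaining columns begin with an unexplained number and were read as the mimic because the series has no further treatment. The labels call the samples replicates without naming separate cultures, so p-values reflect only how far these libraries differ from each other, and that spread may be technical. In bulk RNA, fewer cells with a transcript and less of it per cell cannot be told apart. All 8 hepatocyte markers looked for were present, led by APOB at 25180 and 25130 CPM with the mimic, against 25200 and 25090 CPM in the control. Together these 8 markers came to 48700 and 48300 CPM with the mimic, against 47440 and 45590 CPM in the control. ALB, encoding albumin, was the 1 hepatocyte marker of the 8 that passed as higher, where 0.277% of all tested genes did. It had 10190 and 9760 CPM with the mimic, against 9033 and 7991 CPM in the control (edgeR quasi-likelihood fit, Benjamini-Hochberg adjusted p = 0.0109). Of the 8 markers, 7 had a log2 fold change above 0, against 50.4% of all genes tested. Both mimic libraries were above both controls in 4, against 19.8% of all genes tested. The largest log2 fold change was 0.26, for TTR, at 79.5 and 78.5 CPM with the mimic, against 68.0 and 63.7 CPM in the control (adjusted p = 0.119 in the same edgeR fit). The 6 cholangiocyte markers summed to 897.7 and 919.5 CPM with the mimic, against 914.8 and 987.8 CPM in the control, and the 6 endothelial markers to 12.21 and 13.42 CPM with the mimic, against 11.71 and 10.93 CPM in the control. Of the markers of other liver cells, KRT7, AQP1, COL1A2, LUM, DCN, PTPRC, MARCO, CD163 and KDR had 0 reads in every library. SOX9, a cholangiocyte and progenitor gene, stood at 417.6 and 433.2 CPM with the mimic, against 407.6 and 420.0 CPM in the control. KRT19, a keratin of cholangiocytes, was lower in both mimic libraries, at 352.5 and 365.9 CPM with the mimic, against 390.3 and 459.2 CPM in the control (log2 fold change -0.24, edgeR quasi-likelihood fit, Benjamini-Hochberg adjusted p = 0.0688). The 4 endothelial markers tested had a median log2 fold change of 0.62 on few reads, with none past the test. VWF had 0.914 and 1.17 CPM with the mimic, against 0.416 and 0.435 CPM in the control. LYVE1 had 2.68 and 1.60 CPM with the mimic, against 1.43 and 0.994 CPM in the control. Both were higher in both mimic libraries, while CDH5 and PECAM1 overlapped. VWF had enough reads to be tested through the mimic libraries alone, and the median includes it. STAB2, too low to be tested, had 0 and 6 reads with the mimic, against 5 and 10 in the control. The part of these marker values in the results below was not tested. PDGFRB, a stellate cell gene, had 19.01 and 17.3 CPM with the mimic, against 14.4 and 17.5 CPM in the control, and CD14 of macrophages stayed at or below 0.457 CPM in all 4 libraries.

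The bile acid genes spanned a wide range of levels in these cells, from an abundant export pump to a bile salt pump that was hardly detected. Levels between genes were compared as CPM per kilobase of merged exon, over the 4 libraries. ABCC2 was the highest at a mean of 139.9 CPM per kb, above 99.3% of 19855 protein-coding genes. CYP27A1 followed at 47.9 CPM per kb, above 96.5%. These percentages, and the median given next, count 4251 protein-coding genes with no read in any library. HSD3B7 at 7.76, BAAT at 5.17 and SLC51B at 4.36 CPM per kb lay above the median of protein-coding genes, which was 1.03 CPM per kb. SLC51A at 0.839 and CYP8B1 at 0.575 CPM per kb lay below it, as did CYP7A1 at 0.161, CYP7B1 at 0.0582 and ABCB11 at 0.00538 CPM per kb. Neighbours in this order were separated in all 4 libraries except BAAT and SLC51B, SLC51A and CYP8B1, and CYP7A1 and CYP7B1, whose ranges overlapped. CYP7B1 and ABCB11, with at most 3 reads in any library, were separated only after division by length. In CPM they overlapped, CYP7B1 reaching down to 0.0621 (control library 2) and ABCB11 up to 0.107 (mimic library 2). The order was the same when each gene was divided by the length of its longest APPRIS principal transcript, a choice made after the data were seen. By that length SLC51A had a mean of 3.03 CPM per kb (2.14 to 3.35) and no longer overlapped CYP8B1 (0.575 to 0.778). Its place below the median holds by merged length, the only length for which a median was taken. ABCC2 alone held 86.0% and 84.8% of the summed CPM of the 10 genes with the mimic, against 85.4% and 84.3% in the control.

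**Figure D1:**
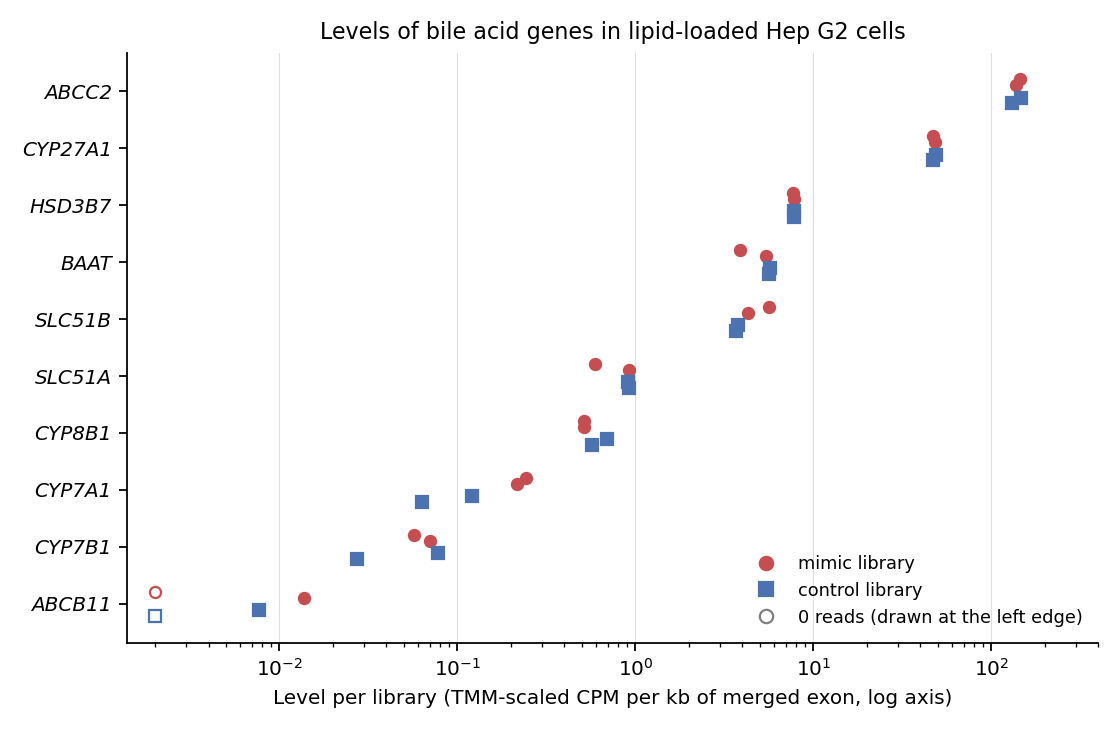
Level of each of the 10 bile acid genes in each library, in TMM-scaled CPM per kb of merged exon on a log axis, with the mimic libraries (circles) above the control libraries (squares) in each row. Open symbols at the left edge mark libraries with 0 reads. ABCC2 lies at 130.8 to 146.3 CPM per kb and ABCB11 at 0 to 0.0138 CPM per kb.

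Of the 8 genes tested, 0 rose and 0 fell with the mimic at an adjusted p under 0.05 in the edgeR quasi-likelihood fit, adjusted by Benjamini-Hochberg, where 0.346% of all tested genes passed, 0.277% as higher and 0.0691% as lower. At an unadjusted p under 0.05 the count was also 0 of 8 by edgeR, DESeq2 and limma voom. By edgeR 9.43% of all tested genes were under it. With all 4 libraries kept, it was 1 of 8, BAAT, by edgeR on library totals without TMM (unadjusted p = 0.0463). A block by column number also gave BAAT (unadjusted p = 0.0264 by edgeR). In these fits 1393 and 1770 of 14464 genes were under 0.05. In the main fit the log2 fold changes ran from -0.30 for CYP8B1 to 1.28 for CYP7A1, with a median of -0.0098 beside 0.0011 over all genes tested. The groups did not overlap in 5 of the 8, both mimic libraries being higher in 2 and lower in 3, where 39.1% of all tested genes had groups that did not overlap, 19.8% with the mimic higher and 19.3% with the mimic lower. The 2 that were higher include CYP7A1, which entered the test through the mimic libraries alone, and the 3 that were lower include HSD3B7, whose 4 values lay between 19.2 and 19.4 CPM.

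The enzyme that begins the alternative pathway was abundant and nearly equal in both groups. CYP27A1, the mitochondrial sterol 27-hydroxylase on chromosome 2 from 218781749 to 218815293 of GRCh38 (GENCODE 29), stood at 140.4 and 144.9 CPM with the mimic, against 145.9 and 140.8 CPM in the control. The groups overlapped, and the log2 fold change of -0.0069 came with a 95% interval of -0.12 to 0.11 (edgeR quasi-likelihood fit, Benjamini-Hochberg adjusted p = 0.988). A rise past 1.08-fold or a fall below 0.919-fold thus lay outside the interval, the narrowest among the enzymes. CYP7B1, the oxysterol 7-alpha-hydroxylase that follows it in this route, had 2 and 3 reads with the mimic, against 3 and 1 reads in the control. Summed over each group this was 0.147 CPM with the mimic (exact Poisson interval 0.0476 to 0.342), against 0.122 CPM in the control (0.0331 to 0.311). These intervals cover counting error only, and CYP7B1 was too low to be tested. Within each library CYP27A1 exceeded HSD3B7, the dehydrogenase shared by both routes, by 6.11 and 6.27 times per kb with the mimic, against 6.28 and 6.06 times in the control.

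CYP7A1, the cholesterol 7-alpha-hydroxylase that limits the classical route, was near the limit of detection. It had 11 and 12 reads with the mimic, against 6 and 3 reads in the control, or 0.718 and 0.639 CPM against 0.357 and 0.186 CPM. Both mimic libraries were above both control libraries. The gene passed the filter on low counts, which lay at 0.610 CPM, through the mimic libraries only, so a gene at this depth could enter the test only by being higher in a group. The log2 fold change was 1.28 (SE 0.70; 95% interval -0.17 to 2.73), and it did not pass (edgeR quasi-likelihood fit, Benjamini-Hochberg adjusted p = 0.606). From the summed reads, 23 with the mimic, against 9 in the control, the ratio of mimic to control was 2.47. The exact interval for counting error alone ran from 1.10 to 6.06. This interval pools the libraries of each group and was taken for CYP7A1 alone. Because the gene entered through the mimic libraries, the interval is no test of a rise. Without control library 1 the log2 fold change was 1.82 and without control library 2 it was 0.91, and neither passed.

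Another enzyme of the classical route was also low. CYP8B1, the sterol 12-alpha-hydroxylase, had 2.29 CPM in each mimic library and 3.09 and 2.55 CPM in the control. Both mimic libraries were lower, but the log2 fold change of -0.30 came with a 95% interval of -0.94 to 0.33 (edgeR quasi-likelihood fit, Benjamini-Hochberg adjusted p = 0.838). Without control library 1 it was -0.15. HSD3B7, the 3-beta-hydroxy-C27-steroid dehydrogenase, was the steadiest of the 10, at 19.2 and 19.3 CPM with the mimic, against 19.4 CPM in each control library. Its log2 fold change was -0.013 with a 95% interval from -0.25 to 0.22 (edgeR quasi-likelihood fit, Benjamini-Hochberg adjusted p = 0.988). An antisense gene covers 64.6% of the HSD3B7 exon sequence. The sources used here do not say how strand was treated in counting, so reads of the pair cannot be told apart with certainty. The level of HSD3B7, its place in the order and its ratio to CYP27A1 carry the same uncertainty. That antisense gene held 7 and 25 reads with the mimic, against 35 and 18 in the control, while HSD3B7 itself held 294 and 363 reads with the mimic, against 327 and 313 in the control.

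BAAT, the enzyme that conjugates bile acids to glycine or taurine, differed mainly in 1 mimic library. BAAT lies on chromosome 9 from 101360417 to 101383519 of GRCh38 and had 13.2 and 18.4 CPM with the mimic, against 19.4 and 19.1 CPM in the control. Both mimic libraries were lower, mimic library 1 by far the more. The log2 fold change was -0.27 with a 95% interval from -0.55 to 0.02, which did not pass (edgeR quasi-likelihood fit, Benjamini-Hochberg adjusted p = 0.569). The mimic libraries differed from each other by a log2 ratio of -0.48, library 1 over library 2, more than the groups did. Without mimic library 1 the log2 fold change was -0.07, and without mimic library 2 it was -0.55 (edgeR quasi-likelihood fit, Benjamini-Hochberg adjusted p = 0.132).

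The canalicular pumps stood at opposite ends of the range. ABCC2, also known as MRP2, lies on chromosome 10 from 99782640 to 99852594 of GRCh38 and had 1132 and 1084 CPM with the mimic, against 1147 and 1025 CPM in the control. The groups overlapped, and the log2 fold change of 0.03 came with a 95% interval of -0.07 to 0.12 (edgeR quasi-likelihood fit, Benjamini-Hochberg adjusted p = 0.912), so that a change outside 0.955-fold to 1.09-fold lay outside the interval. ABCB11, the bile salt export pump, lies on chromosome 2 from 168915498 to 169031324 of GRCh38 and had 0 and 2 reads with the mimic, against 1 and 0 reads in the control. Over each group this was 0.0587 CPM with the mimic (exact Poisson interval 0.00710 to 0.212), against 0.0304 CPM in the control (0.000769 to 0.169). Both groups were at or under the limit of 3 reads that a count of 0 allows, so no fold change is given and no difference was detectable at this depth.

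The 250 bases before the RefSeq start of these pumps and of both subunits of the basolateral carrier are shown because the 4 genes are targets of the same class of bile acid and xenobiotic sensing nuclear receptors and yet differed widely in level. Sequences are 5' to 3' on the strand of the gene in GRCh38.p14, with capitals for matches to a motif.
ABCC2: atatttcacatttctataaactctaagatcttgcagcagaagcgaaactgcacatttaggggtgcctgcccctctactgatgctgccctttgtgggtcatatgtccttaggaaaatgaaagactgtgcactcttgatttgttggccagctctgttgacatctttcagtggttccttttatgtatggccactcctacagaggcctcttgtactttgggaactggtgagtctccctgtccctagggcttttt
ABCB11: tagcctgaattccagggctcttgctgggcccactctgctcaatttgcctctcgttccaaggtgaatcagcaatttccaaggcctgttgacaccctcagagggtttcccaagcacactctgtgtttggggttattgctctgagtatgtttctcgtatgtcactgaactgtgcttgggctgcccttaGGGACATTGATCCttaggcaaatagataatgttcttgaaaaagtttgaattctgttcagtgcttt
SLC51A: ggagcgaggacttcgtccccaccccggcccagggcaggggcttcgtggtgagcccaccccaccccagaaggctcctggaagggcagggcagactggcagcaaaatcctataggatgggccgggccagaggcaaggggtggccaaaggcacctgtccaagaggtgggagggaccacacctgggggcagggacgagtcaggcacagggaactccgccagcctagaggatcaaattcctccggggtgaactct
SLC51B: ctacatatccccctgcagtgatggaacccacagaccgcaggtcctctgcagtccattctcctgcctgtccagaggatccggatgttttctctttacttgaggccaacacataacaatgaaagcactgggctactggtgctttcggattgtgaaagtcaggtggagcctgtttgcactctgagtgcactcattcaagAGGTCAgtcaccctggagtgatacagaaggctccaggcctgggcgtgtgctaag
The windows are chr10:99782390-99782639 on the plus strand for ABCC2, chr2:169031325-169031574 on the minus strand for ABCB11, chr3:196216284-196216533 on the plus strand for SLC51A and chr15:65045137-65045386 on the plus strand for SLC51B. Of the 10 genes, 7 had a window in the RefSeq table. Motifs were searched on both strands among 35116 such windows. The capitals in ABCB11 are a match to the spaced inverted repeat GGNNCANTGNNCC, a loose form of the element that FXR binds, which 0.461% of all windows held. Its bases run from -65 to -53 relative to the start. The capitals in SLC51B are a match to the nuclear receptor half-site AGGTCA from -54 to -49, found in 12.1% of all windows. HSD3B7 held 2 such matches. BAAT, which has more than 1 window, held 1 match in only 1 of them. The strict inverted repeat AGGTCANTGACCT was in 0 of the 35116 windows, and the direct repeat AGGTCANAGGTCA, the HNF1 palindrome GTTAATNATTAAC and its shorter form GTTAAT had no match in any of the 7 genes. The half-site AGGTCA is contained in the strict repeats. ABCC2 and SLC51A held none of these letters in this window. A match is a description of the sequence and was not related to binding here.

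The subunits of the basolateral carrier leaned opposite ways, without passing the test. SLC51A encodes the alpha subunit of the organic solute transporter, lies on chromosome 3 from 196211487 to 196243178 of GRCh38, and had 3.13 and 4.90 CPM with the mimic, against 4.82 and 4.91 CPM in the control. Mimic library 1 was low, and mimic library 2 lay within the range of the controls. The log2 fold change of -0.24 came with a 95% interval of -0.76 to 0.27 (edgeR quasi-likelihood fit, Benjamini-Hochberg adjusted p = 0.838), and it was 0.0094 without mimic library 1 and -0.63 without mimic library 2. SLC51B encodes the beta subunit, lies on chromosome 15 from 65045370 to 65053396 of GRCh38, and had 5.29 and 4.05 CPM with the mimic, against 3.57 and 3.48 CPM in the control. Both mimic libraries were higher, mimic library 1 the more. Its log2 fold change of 0.39 came with a 95% interval of -0.13 to 0.91 (edgeR quasi-likelihood fit, Benjamini-Hochberg adjusted p = 0.678), and it was 0.20 without mimic library 1 and 0.58 without mimic library 2. The ratio of the SLC51A level to the SLC51B level per kb was 0.105 and 0.215 with the mimic, against 0.240 and 0.251 in the control, lower in both mimic libraries. This ratio was not tested. The size of the gap between subunits depends on the exon length used for SLC51A, 5293 bases for all merged exons and 1463 for the principal transcript, with which the mean level was 3.03 CPM per kb for SLC51A and 4.36 for SLC51B. On the opposite strand, PCYT1A shares 7.35% of the SLC51A exon sequence.

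**Figure D2:**
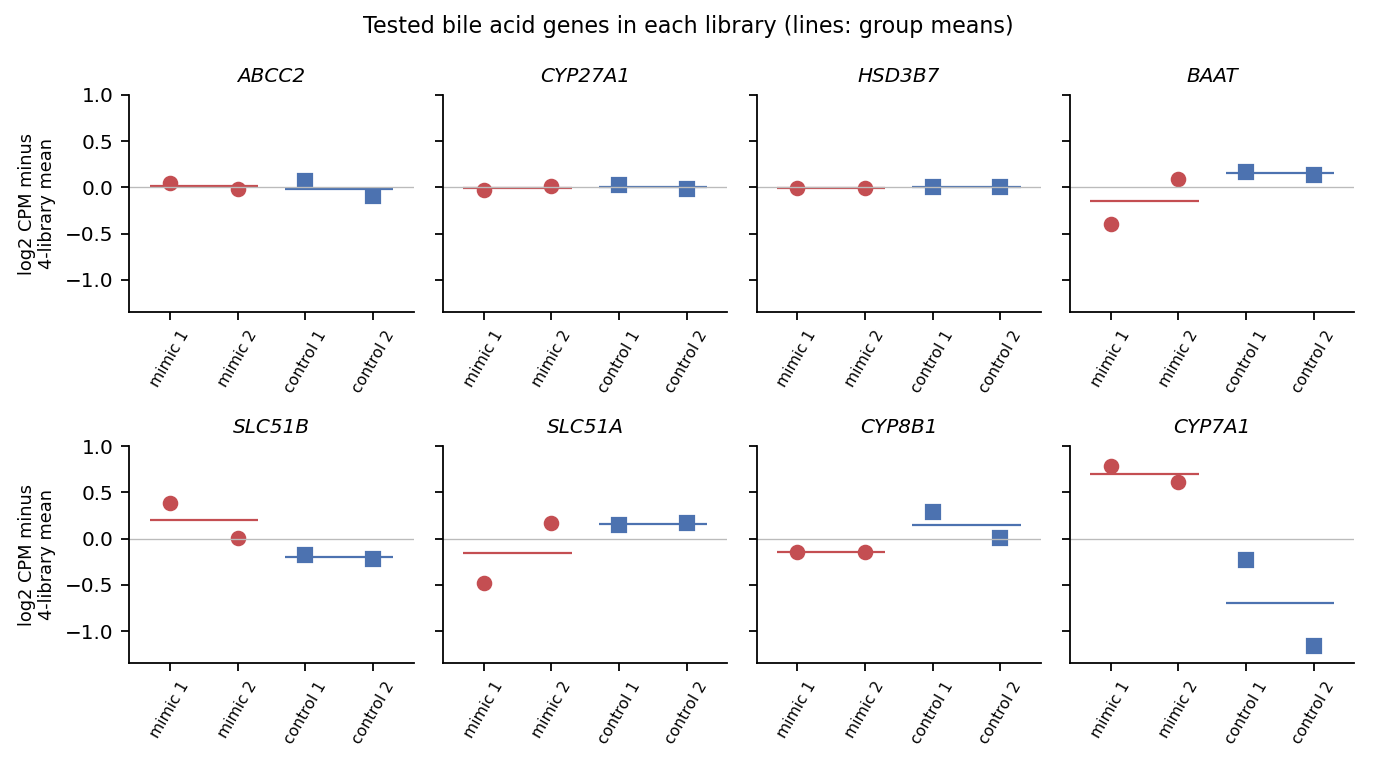
Log2 CPM of each tested bile acid gene in each library, minus its mean over the 4 libraries, with mimic libraries as circles, control libraries as squares and group means as lines. In BAAT and SLC51A mimic library 1 lies below the other 3 libraries, and in SLC51B above them, while the values of CYP27A1 and HSD3B7 nearly coincide. The spread of CYP7A1 rests on 3 to 12 reads per library.

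**Figure D3:**
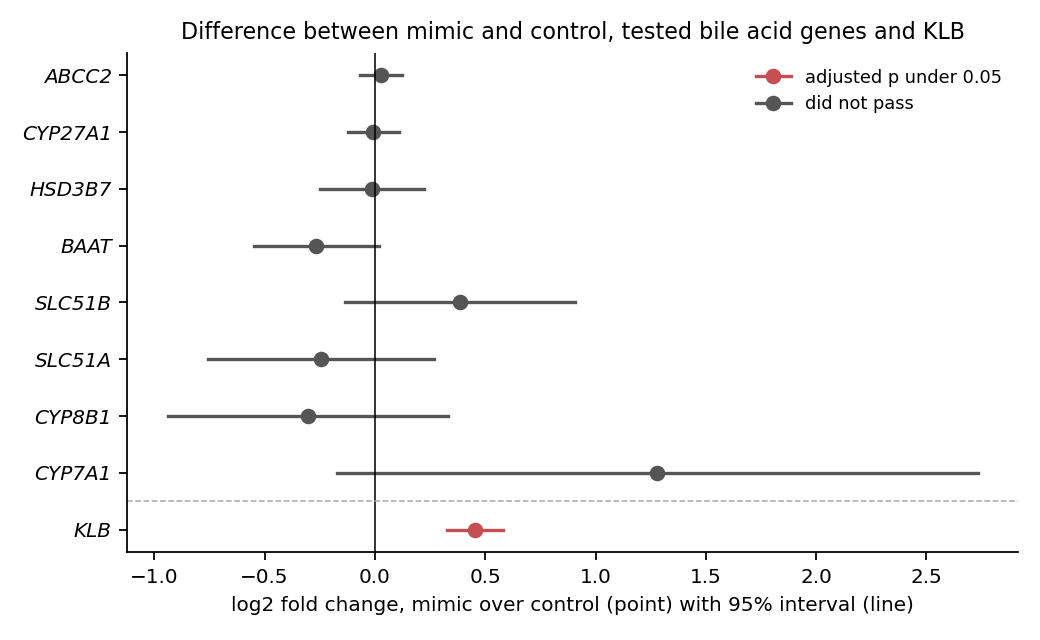
Log2 fold change of mimic over control with its 95% interval for the 8 tested bile acid genes and, below the dashed line, for KLB. The intervals of all 8 bile acid genes include 0, from the narrow one of ABCC2 (-0.07 to 0.12) to the wide one of CYP7A1 (-0.17 to 2.73), whereas that of KLB (0.33 to 0.58) does not.

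The genes that sense bile acids and regulate their synthesis held 1 change, in KLB. Of 18 such genes 15 were tested, of which 1 (KLB) rose and 0 fell, where 0.277% and 0.0691% of all tested genes did. The list was chosen with earlier results of these data known, and the study title names KLB. The count of 1 is therefore no test of the list. At an unadjusted p under 0.05 by edgeR there were 2 of the 15, KLB and NR1H4, where 9.43% of all tested genes were. The median log2 fold change of the 15 was -0.03, beside 0.0011 over all genes tested. KLB stood at 217.8 and 206.4 CPM with the mimic, against 165.8 and 143.6 CPM in the control, both mimic libraries being higher. Its log2 fold change was 0.45 (edgeR quasi-likelihood fit, Benjamini-Hochberg adjusted p = 0.000911), and it was 0.45 as well when low genes were kept and in the test against a 1.2-fold change. The call was lost in both of these settings (adjusted p = 0.754 and 1 by edgeR, Benjamini-Hochberg), which called 0 genes of the whole table. Of its partners in the FGF19 signal, the receptor FGFR4 had 241.7 and 244.7 CPM with the mimic, against 243.4 and 235.6 CPM in the control, groups that overlapped, with a 95% interval of the log2 fold change from -0.08 to 0.12. The hormone FGF19, made chiefly by the intestine, had 2 and 5 reads with the mimic, against 3 and 2 in the control. CYP7A1 and CYP8B1, the enzymes that this signal represses in hepatocytes, are the low genes described above.

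Among the nuclear receptors of this list the values did not pass the test. NR1H4, which encodes FXR, had 19.5 and 17.0 CPM with the mimic, against 16.4 and 11.9 CPM in the control, higher in both mimic libraries, with a log2 fold change of 0.35 (95% interval 0.06 to 0.65; edgeR quasi-likelihood fit, Benjamini-Hochberg adjusted p = 0.417). Without control library 1 it passed, at 0.60 (adjusted p = 0.0185 by edgeR, Benjamini-Hochberg), in a fit that called 424 genes, and without control library 2 it was 0.15. NR0B2, the repressor SHP that FXR induces, was at 43.2 and 40.7 CPM with the mimic, against 44.1 and 46.7 CPM in the control (log2 fold change -0.12, 95% interval -0.29 to 0.05). PPARA, the fatty acid receptor, had 103.5 and 113.0 CPM with the mimic, against 103.1 and 96.1 CPM in the control (log2 fold change 0.12, edgeR quasi-likelihood fit, Benjamini-Hochberg adjusted p = 0.577). PROX1, a repressor of CYP7A1 in hepatocytes with the highest CPM of the list before division by length (FGFR4, NR0B2, HNF4A and KLB were higher per kb), had 268.6 and 274.8 CPM with the mimic, against 256.4 and 270.1 CPM in the control. HNF4A, which sustains many hepatocyte genes, overlapped between groups at 238.3 and 251.6 CPM with the mimic, against 243.5 and 262.9 CPM in the control.

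Among the other genes of bile acid synthesis 0 of 12 tested passed in either direction, of 15 listed and 13 with a read. Of all tested genes 0.346% passed. Their median log2 fold change was 0.09, and 8 of the 12 lay above 0, as did 50.4% of all genes tested. At an unadjusted p under 0.05 by edgeR there were 2 of the 12, EPHX1 and HSD17B4, where 9.43% of all tested genes were. EPHX1, the microsomal epoxide hydrolase, had 114.1 and 105.6 CPM with the mimic, against 98.2 and 91.7 CPM in the control (log2 fold change 0.21, edgeR quasi-likelihood fit, Benjamini-Hochberg adjusted p = 0.229). HSD17B4, the peroxisomal enzyme that shortens the side chain, had 156.8 and 152.7 CPM with the mimic, against 143.9 and 134.4 CPM in the control (log2 fold change 0.15, adjusted p = 0.370 in the same edgeR fit). The cholesterol carrier STARD4 had 39.0 and 38.2 CPM with the mimic, against 36.3 and 34.3 CPM in the control. In all 3, which were named for the smallest p of the list, the mimic libraries were higher than the controls. This held for 5 of the 12 genes tested and for 19.8% of all genes tested. The log2 fold change of EPHX1 was 0.26 without control library 1 and 0.16 without control library 2. The oxysterol enzymes CYP46A1 and CH25H had 0 reads in every library, and CYP39A1 had 2 and 5 reads with the mimic, against 0 and 2 in the control.

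Among the other bile acid and canalicular transporters 0 of 10 tested passed in either direction, of 16 listed and 11 with a read. Of all tested genes 0.346% passed. At an unadjusted p under 0.05 by edgeR there were 4 of the 10 (SLCO2B1, ABCC3, ABCB1 and TMEM30A), 2 higher and 2 lower, where 9.43% of all tested genes were. The median log2 fold change of the 10 was -0.05. The hepatocyte uptake carriers SLCO1B1 and SLCO1B3 had 0 reads in every library, and the main bile salt uptake carrier SLC10A1 (NTCP) had 3 and 13 reads with the mimic, against 9 and 4 in the control. SLCO2B1, an uptake carrier of organic anions, had 30.3 and 32.9 CPM with the mimic, against 38.3 CPM in each control library, lower in both mimic libraries (log2 fold change -0.27, 95% interval -0.46 to -0.09; edgeR quasi-likelihood fit, Benjamini-Hochberg adjusted p = 0.269). ABCC3, a basolateral export pump, had 85.7 and 88.7 CPM with the mimic, against 93.7 and 109.2 CPM in the control (log2 fold change -0.22, adjusted p = 0.257 in the same edgeR fit). ABCB1, the multidrug pump, had 183.7 and 170.8 CPM with the mimic, against 166.9 and 150.0 CPM in the control (log2 fold change 0.16, adjusted p = 0.369 in the same edgeR fit). In the fit without control library 1, ABCC3 passed as lower (log2 fold change -0.32, adjusted p = 0.00145 by edgeR, Benjamini-Hochberg) and ABCB1 as higher (0.24, adjusted p = 0.0130), and without control library 2 they were at -0.10 and 0.09. TMEM30A, the subunit that canalicular lipid flippases need, had the highest level of the list, per kb too, at 244.1 and 246.4 CPM with the mimic, against 223.9 and 231.0 CPM in the control.

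Among genes of bile acid detoxification 0 of 4 tested passed, of 8 listed and 7 with a read, where 0.346% of all tested genes passed. At an unadjusted p under 0.05 by edgeR there was 1 of the 4, UGT2B7, where 9.43% of all tested genes were. The median log2 fold change of the 4 was 0.14, beside 0.0011 over all genes tested. SULT2A1, the sulfotransferase of bile acids and steroids, had the highest level, per kb too, at 135.8 and 126.0 CPM with the mimic, against 126.2 and 121.6 CPM in the control. UGT2B7, a glucuronosyltransferase, had 37.0 and 39.1 CPM with the mimic, against 36.0 and 29.8 CPM in the control (log2 fold change 0.21, edgeR quasi-likelihood fit, Benjamini-Hochberg adjusted p = 0.498). UGT2B4, an enzyme of the same family, had 25 and 35 reads with the mimic, against 29 and 6 in the control, so its log2 fold change of 0.72 was 0.03 without control library 2 and 2.22 without control library 1. CYP3A4, which hydroxylates bile acids, had 2 and 4 reads with the mimic, against 5 and 4 in the control. UGT1A1 and UGT1A3 share exons with each other and with the rest of their cluster, so their counts of 0 to 15 reads are uncertain.

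**Figure D4:**
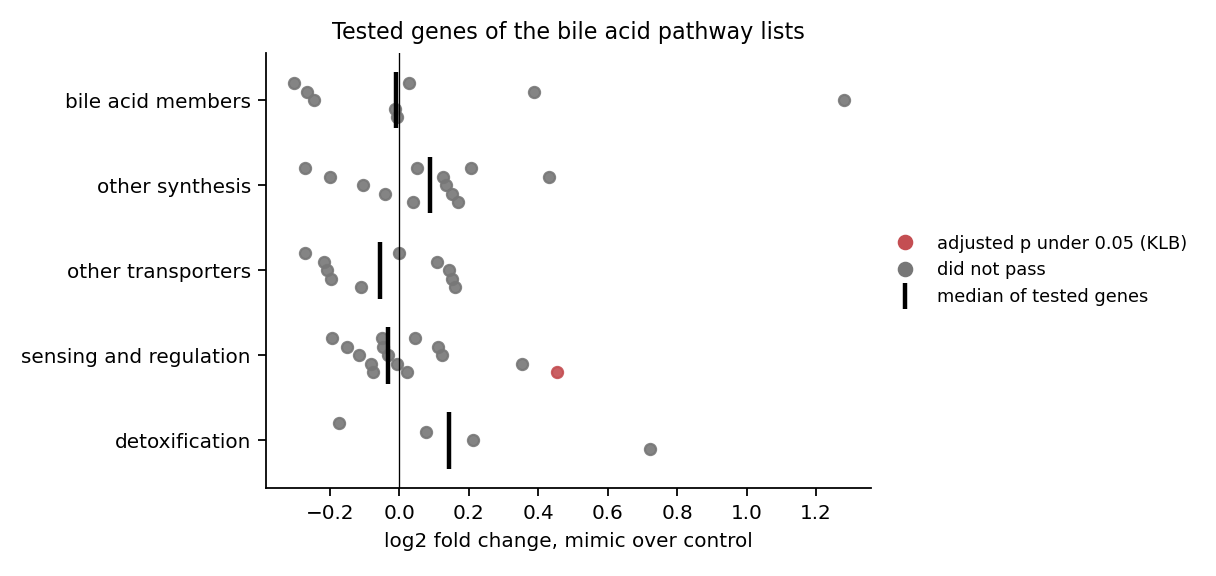
Log2 fold change of mimic over control for each tested gene of the bile acid genes and of 4 neighbouring lists, with a bar at the median of each. KLB, at 0.45, is the only gene shown that passed. The medians lie between -0.05 and 0.14, and the point at 1.28 is CYP7A1.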

How the data were processed

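Poly(A)-selected RNA from 4 Hep G2 samples was sequenced after library preparation from 500 ng of RNA with a stranded KAPA kit on a NextSeq 500, per the labels' protocols, which give an RNA integrity number above 9.5. The authors deposited unnormalized counts, 1 whole number per gene and library. The submitters' processing notes name GRCh38.p14 with STAR, HTSeq, Bowtie2 and FastQC; the sources used here give no versions, annotation release or strand setting. The 5 HTSeq summary entries that name no gene, 23.1% to 24.1% of each column, were left out. Symbols were found for 62590 of 62655 IDs.

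Low genes were removed by filterByExpr (at least 10 counts, 15 in total), libraries were scaled with TMM and compared with edgeR 4.0.16 in R 4.3.3 (estimateDisp, glmQLFit with legacy = FALSE, glmQLFTest), with Benjamini-Hochberg adjustment over 14464 genes and calls at 0.05. Dispersion over all genes gave a biological coefficient of variation of 5.12%. The steps were tested on simulated data. Exon lengths, positions and overlaps came from GENCODE 29, promoters from RefSeq GRCh38.p14. Counting intervals were made with SciPy 1.17.1. Group values are of 2 libraries each, which limits the precision of every difference.

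The 10 genes, the 4 neighbouring lists and the tests were chosen with earlier results of these data known. All 10 were named, then from each neighbouring list any gene that passed, the 3 with the smallest p and the most abundant, and KLB. FGFR4, FGF19, HNF4A, NR0B2, the markers of other cells and the genes at or near 0 reads were added after their values were seen. Alternatives were DESeq2 1.42.0, limma 3.58.1 (voom), other scalings and filters, legacy = TRUE, glmTreat, each library left out and a block.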

Additional observations from a re-analysis of the deposited data

How the results depend on the processing

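Across 13 alternative settings 0 of the 10 bile acid genes passed in any. Among 103 values of the 8 tested genes under these settings 98 kept the direction of the log2 fold change. The other 5 were near 0: CYP27A1 at 0.014 without mimic library 1 and 0.020 without control library 1 (range -0.032 to 0.020 over the libraries left out), ABCC2 at -0.0044 without mimic library 1 and -0.049 without control library 2 (range -0.049 to 0.11), and SLC51A at 0.0094 without mimic library 1 (range -0.63 to 0.0094). Over all genes tested, 50 were called, against 30 by DESeq2 over 5210 genes with an adjusted p, 0 by edgeR with no filter on low counts (1514 at an unadjusted p under 0.05), 0 by edgeR's glmTreat against a 1.2-fold change (283), and 20 to 424 with each library left out in turn (lowest without mimic library 1, highest without control library 1); the cause was not tested. Where a library is left out, the lone library of its group is assumed to vary like the other group. For bile acid sensing genes the count was 1, against 0 with no filter, 0 with glmTreat and 1 to 2 with each library left out. For other synthesis genes it was 0, with 0 to 1 when libraries were left out, and for other transporters 0, with 0 to 2. The table's column numbers are shared by the groups, but the sample labels share none, so the numbers were not taken as pairs. Deviations of same-numbered libraries from their group means correlated at 0.023 over genes. Counting noise in low genes can pull this value toward 0, so it cannot decide whether the libraries were paired. With the replicate block 306 genes were called over all, 1 of the other synthesis genes (EPHX1), 1 of the other transporters (ABCC3) and 0 of the 10 bile acid genes. DESeq2 gave an adjusted p to 2 of the 8 tested. Ordered by CPM with no division by length, 2 of the 10 genes changed rank, SLC51A and SLC51B.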
